A study of Mus musculus with 78 samples.

Results

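The comparison concerns the kidneys of mice kept on a diet (MCD) deficient in choline, folate and methionine and killed after 1 dose of the solvent tetrachloroethylene (PERC) or of its vehicle. Its members are 7 messenger RNA libraries, 4 from PERC and 3 from vehicle mice, out of 77 libraries with a file. They were chosen by their labels (diet group MCD, single regimen) and by depth: at least 1000000 counts in genes. Labels name 5 libraries in each of the 2 groups. The other 3 (PERC replicate 2 and vehicle replicates 1 and 4) held 2550 to 22029 counts and were left out.

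All mice were male C57BL/6J, an inbred strain with no engineered allele named, and had been on their diet for 8 weeks. Their age is not given in the sources used here. PERC was given at 300 mg/kg in 5% Alkamuls-EL620, an emulsifier, in saline, at 5 mL/kg, and PERC mice were killed 24 h later. When the vehicle mice of this regimen were killed is not given in the sources used here, and PERC and the time after dosing cannot be told apart if those times differed. The series uses the MCD diet as its model of steatohepatitis, and a low-fat diet (LFD, 4% fat) and a high-fat diet (HFD, 31% fat) stand beside it. The same regimen on those diets gave 4 PERC and 5 vehicle libraries (LFD) and 5 PERC and 4 vehicle libraries (HFD). In separate MCD mice, 5 daily doses of PERC or vehicle with death 4 h after the last one gave 8 PERC and 7 vehicle libraries.

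As background, PERC is metabolised by oxidation through cytochrome P450 and by conjugation to glutathione, and proximal tubule cells of the kidney process the glutathione conjugates. Proximal tubule cells take most of their energy from fatty acids. The nuclear receptor PPARA switches on their genes for fatty acid oxidation, and Cyp4a genes, which code for fatty acid omega-hydroxylases, are among its best known targets in rodents. ATF4 is the transcription factor of the integrated stress response and switches on genes of amino acid synthesis and transport when amino acids run short or proteins misfold. A diet without methionine and choline limits methyl groups and one-carbon units as well as sulfur amino acids.

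Counts in genes ran from 9047579 to 42022166 over the 7 libraries, which were sequenced in 3 lanes, each with at least 1 PERC and 1 vehicle library. The deepest library, vehicle replicate 2, stood apart in its mapping, with 9.93% of its reads aligned to several places against 16.3% to 25.2% in the other 6. Vehicle replicate 5 stood apart in expression: on the leading principal component, with 49% of the variance, it lay at -69.5 and the other 6 lay between -0.83 and 22.7. PERC replicate 5, the other library of its lane, was at 1.91. The 10 proximal tubule markers summed to 42704 to 48753 CPM in every library, so the label of kidney holds. CPM, the scale used for single genes and marker sums, is counts per 1000000 counts in the tested genes, adjusted by the TMM factor of the library. Whether libraries of a group came from separate animals is not stated in the labels, and p-values then cover the spread between these libraries, which may be technical.

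Genes of 4 kinds lead the comparison: fatty acid omega-hydroxylases, enzymes of beta-oxidation, a cytosolic aldehyde dehydrogenase, and genes of the amino acid response. Of 14280 genes tested with edgeR's quasi-likelihood test, 4 passed a Benjamini-Hochberg adjusted p of 0.05 (0.0280% of those tested). All 4 were higher after PERC: Aldh1a7, Cyp4a10, Cyp4a31 and Acaa2. At an unadjusted p under 0.05 there were 708 genes (4.96%), 306 higher (2.14%) and 402 lower (2.82%). DESeq2 called 38 genes higher and 5 lower, and edgeR with lane in the model called 15 higher and 2 lower (0.105% and 0.0140%), with the 4 genes in both sets. The number of calls rests on single libraries: without PERC replicate 1, vehicle replicate 2 or vehicle replicate 5 it was 0 (606, 680 and 669 genes at an unadjusted p under 0.05), without PERC replicate 3 or 5 it was 2 (Aldh1a7 and Cyp4a10), and without vehicle replicate 3 it was 1, the GTPase gene Tgtp2.

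Cyp4a10 (chromosome 4, 115518287 to 115533649, GRCm38) codes for a fatty acid omega-hydroxylase. Its level was 163, 162 and 217 CPM in vehicle replicates 2, 3 and 5, and 1444, 863, 827 and 863 CPM in PERC replicates 1, 3, 4 and 5. PERC replicate 1 was the highest, and the other 3 PERC libraries lay close together and far above every vehicle library. The rise of Cyp4a10 was 5.53-fold, a log2 fold change of 2.47 (SE 0.40, edgeR adjusted p = 0.0256). Within lanes the log2 difference was 3.15, 2.38 and 1.99 in lanes 1, 2 and 3, and 8.81% of all tested genes were likewise higher in all 3.

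Cyp4a31 lies next to it (chromosome 4, 115563627 to 115579015) and codes for a related omega-hydroxylase. It was at 264, 233 and 287 CPM with vehicle and at 1079, 780, 733 and 771 CPM with PERC. It rose 3.21-fold (log2 1.68, SE 0.30, edgeR adjusted p = 0.0491), and by 2.03, 1.70 and 1.42 within the 3 lanes. Cyp4a14, the most inducible member of the family in rodent liver, showed a wider swing and a wider spread. Its levels were 12.6, 9.48 and 26.99 CPM with vehicle and 1169, 478, 386 and 541 CPM with PERC, groups that are far apart. Its log2 fold change of 5.32 (SE 1.12, edgeR adjusted p = 0.127) did not pass in the fit over 6 groups. It passed in the fit to the MCD libraries alone, with DESeq2, with the adipocyte covariate and with the low-depth libraries kept.

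The remaining Cyp4a genes did not pass, and they did not all lie on the same side. Cyp4a12b had 6.84 to 14.3 CPM with vehicle and 23.8 to 34.3 CPM with PERC (log2 1.49, SE 0.40). Cyp4a32 lay the other way, at 7.70 to 14.7 CPM with vehicle and 5.62 to 7.42 CPM with PERC (log2 -0.76, SE 0.30). Cyp4a12a, an androgen-dependent omega-hydroxylase of mouse kidney, overlapped between groups (log2 -0.43, SE 0.29). Thus 2 of the 6 Cyp4a genes were called and 4 were not, with a list median of 1.59 against -0.012 over all tested genes. Some of these genes are close copies of one another. Multiply aligned reads were outside the gene counts, so how counts fall among such copies is uncertain.

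Aldh1a7 (chromosome 19, 20692953 to 20727556) had the smallest p of all genes. It codes for a cytosolic aldehyde dehydrogenase of rodents and is a close copy of Aldh1a1, whose enzyme oxidises retinal to retinoic acid. Its level was 9.95, 11.7 and 12.1 CPM with vehicle and 58.6, 42.4, 37.8 and 44.7 CPM with PERC. It rose 4.10-fold (log2 2.04, SE 0.32, edgeR adjusted p = 0.0228), and by 2.54, 1.76 and 1.88 within lanes. Aldh1a1 had 8.70, 7.53 and 8.998 CPM with vehicle and 29.2, 15.997, 21.2 and 19.1 CPM with PERC, also without overlap, but did not pass (log2 1.34, SE 0.31, edgeR adjusted p = 0.147). As with Cyp4a, reads shared by the 2 copies were not counted, so their separate values are uncertain.

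The other 18 tested genes of the aldehyde dehydrogenase and retinoid list held no call, and the list median was 0.094. Aldh9a1, an enzyme of carnitine synthesis, was at log2 0.54 (SE 0.13). The retinal dehydrogenase gene Aldh1a3 had 16.5 to 34.4 CPM with vehicle and 4.63 to 13.01 CPM with PERC (log2 -1.32, SE 0.66, edgeR adjusted p = 0.999).

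Acaa2, on chromosome 18, codes for the mitochondrial thiolase of the last step of beta-oxidation. It had 167, 198 and 151 CPM with vehicle and 380, 355, 292 and 314 CPM with PERC. The spread within each group was small, and the lowest PERC library stood well above the highest vehicle library. Acaa2 rose 1.95-fold (log2 0.96, SE 0.18, edgeR adjusted p = 0.0491), and by 1.18, 0.70 and 1.05 within lanes.

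Around Acaa2, all 20 tested genes of mitochondrial beta-oxidation had a positive log2 fold change, where 47.1% of all tested genes did. The list median was 0.34, 1 gene was called, and 8 of the 20 had PERC libraries all above vehicle libraries (2.67% of all tested genes did). Eci1, an enoyl-CoA isomerase for unsaturated fatty acids, had 55.5, 65.9 and 48.5 CPM with vehicle and 125.1, 121, 104.9 and 102 CPM with PERC (log2 1.0002, SE 0.21, edgeR adjusted p = 0.113). The carnitine carrier gene Slc25a20 was at log2 0.86 (SE 0.22), the dienoyl-CoA reductase gene Decr1 at 0.79 (SE 0.21) and Cpt2, of the inner membrane carnitine shuttle, at 0.71 (SE 0.20). The outer membrane gate Cpt1a had 563 to 792 CPM with vehicle and 681 to 831 CPM with PERC (log2 0.19, SE 0.15), so its groups overlapped.

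In peroxisomes, where long fatty acids are shortened, 18 of 21 tested genes had a positive log2 fold change (median 0.30), with 0 called. In 9 of them the PERC libraries were all above vehicle. Of all tested genes, 47.1% were positive and 2.67% lay all above vehicle. The peroxisomal thiolase gene Acaa1b was the leading one. Its vehicle libraries ranged from 62.99 to 159 CPM and its PERC libraries from 267 to 442 CPM (log2 1.67, SE 0.33, edgeR adjusted p = 0.0899). It was among the calls with lane in the model. Ehhadh, the bifunctional enzyme, had 713 to 1084 CPM with vehicle and 1544 to 2461 CPM with PERC (log2 1.144, SE 0.29). Ech1, a dienoyl-CoA isomerase, was at log2 0.59 (SE 0.14) and Pex11a, a peroxisome division gene, at 0.82 (SE 0.21).

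Among acyl-CoA thioesterases, which release free fatty acids from coenzyme A, 8 of 9 tested genes were positive (median 0.66) and 0 were called. The mitochondrial Acot2 had 14.4, 19.9 and 14.6 CPM with vehicle and 67.2, 41.3, 39.7 and 28.8 CPM with PERC (log2 1.44, SE 0.32, edgeR adjusted p = 0.133). The cytosolic Acot1, its near copy, was at log2 1.55 (SE 0.36) and the peroxisomal Acot3 at 1.40 (SE 0.43). Their reads can be shared, which makes the split among them uncertain.

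The list of ketone, fuel switch and other PPARA targets had a median of 0.54, with 16 of 20 tested genes positive and 0 called. Vnn1, which codes for a pantetheinase and is a PPARA target in mouse liver, was at 1.30 (SE 0.31). The lipid droplet gene Plin5 was at 1.42 (SE 0.50), and Angptl4, an inhibitor of lipoprotein lipase, at 1.12 (SE 0.49). Pdk4, a kinase that shuts off pyruvate oxidation, had 40.99, 40.4 and 118 CPM with vehicle and 72.7 to 132 CPM with PERC. Vehicle replicate 5 lay inside the PERC range, and the log2 fold change of 0.61 (SE 0.60) became 1.31 without that library. Ppara itself had 150 to 220 CPM with vehicle and 159 to 216 CPM with PERC (log2 0.026, SE 0.21).

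Genes of fatty acid uptake and activation were mixed, with 10 of 16 tested positive (median 0.15). The acyl-CoA synthetase gene Acsl1 was at log2 0.85 (SE 0.21) and the fatty acid transporter Cd36 at 0.02. The medium-chain synthetase gene Acsm1 lay lower, at 173 to 190 CPM with vehicle and 125.9 to 158 CPM with PERC (log2 -0.31, SE 0.12). Over the 6 fatty acid lists, 92 genes were tested and 76 had a positive log2 fold change. Their median was 0.30, 3 were called, 36 had all PERC libraries above vehicle and 2 had all below (2.67% and 3.25% of all tested genes did).

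**Figure D1:**
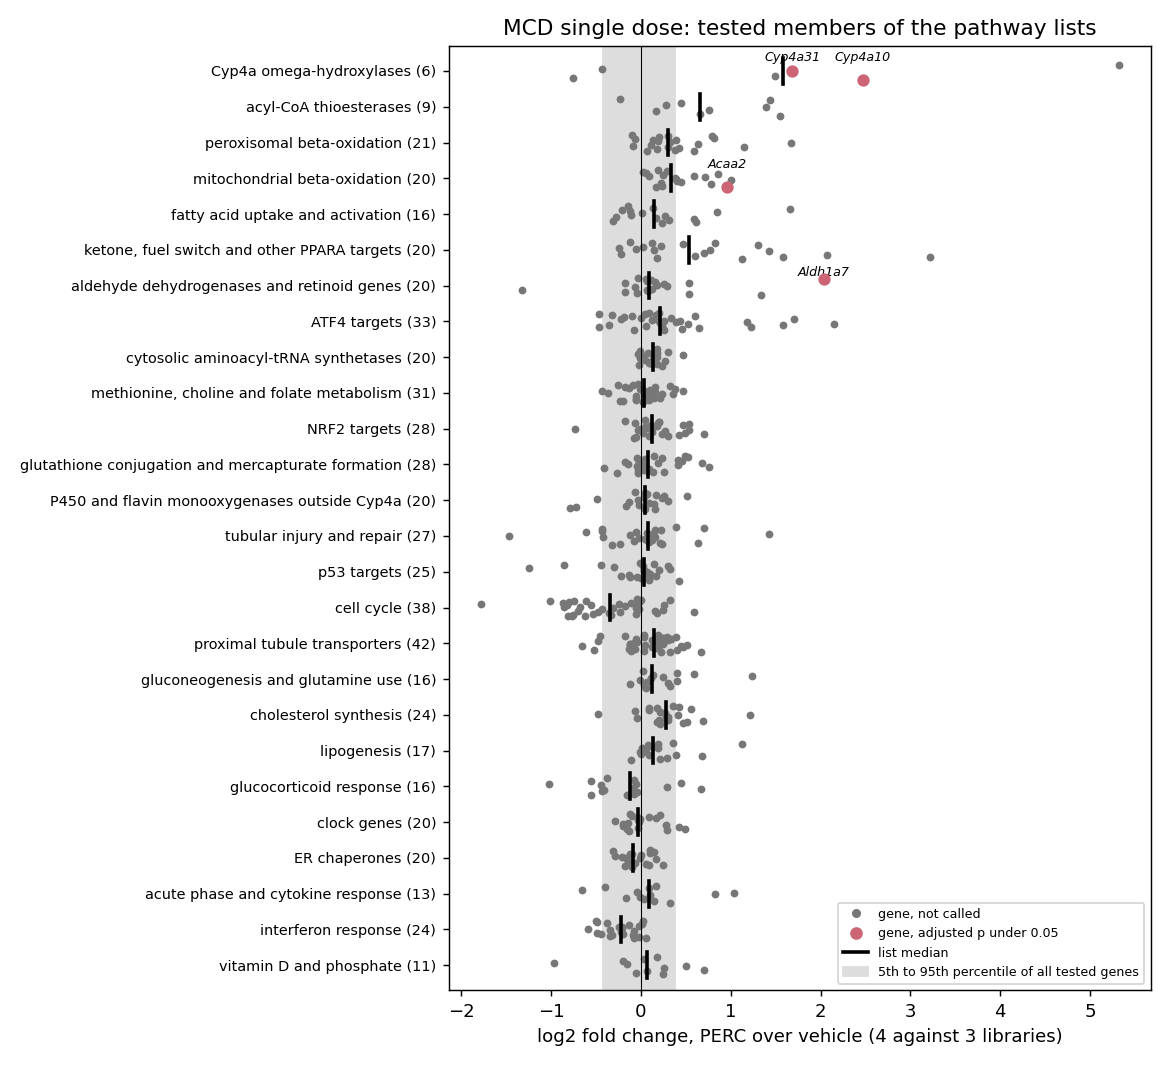
Log2 fold changes of every tested member of 26 pathway lists (number tested in brackets), with list medians as black bars. The grey band spans the 5th to 95th percentile of all tested genes (-0.43 to 0.38). The 4 called genes, in red, belong to the Cyp4a, mitochondrial beta-oxidation and aldehyde dehydrogenase lists, and the medians of the Cyp4a, thioesterase and PPARA target lists lie to the right of the band.

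ATF4 targets formed the other group near the threshold. Asns, asparagine synthetase (chromosome 6, 7675165 to 7693209), had 5.34, 2.54 and 5.93 CPM with vehicle and 22.1, 15.2, 10.04 and 13.8 CPM with PERC (log2 1.71, SE 0.32, edgeR adjusted p = 0.0556). Mthfd2, the mitochondrial folate enzyme that feeds 1-carbon units into formate, had 3.28, 1.86 and 3.17 CPM with vehicle and 11.2, 7.35, 6.56 and 8.89 CPM with PERC (log2 1.58, SE 0.31, edgeR adjusted p = 0.0556). In both genes the lowest PERC library stood above the highest vehicle library, in each of the 3 lanes as well. Chac1, which breaks down glutathione, had 0.409 to 1.27 CPM with vehicle and 3.03 to 5.88 CPM with PERC (log2 2.15, SE 0.49, edgeR adjusted p = 0.147). Atf5, a stress-induced transcription factor, had 10.9, 11.9 and 4.40 CPM with vehicle and 28.5, 24.1, 18.1 and 13.3 CPM with PERC (log2 1.18, SE 0.40). Trib3, a pseudokinase that dampens the same response, overlapped (log2 1.23, SE 0.59).

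Of 33 tested ATF4 targets, 24 had a positive log2 fold change (median 0.22), and 0 were called. In 10 of them the PERC libraries were all above vehicle. Of all tested genes, 47.1% were positive and 2.67% had PERC libraries all above vehicle. With lane in the model 4 of the 33 passed: Asns, Mthfd2, Chac1 and Atf5, where 0.105% of all genes were called higher. The serine synthesis genes Psat1 and Phgdh were at log2 0.53 (SE 0.16) and 0.64 (SE 0.43). Atf4 itself was at 0.17 and the apoptosis-linked Ddit3 at 0.19, both with overlapping groups. Cytosolic aminoacyl-tRNA synthetases, many of which ATF4 also controls, had 16 of 20 positive and a median of 0.13, with 0 called. Cars, the cysteinyl-tRNA synthetase gene, was at 0.47 (SE 0.11). Of 31 tested genes of methionine, choline and folate metabolism, 0 were called and the median was 0.039. The methionine adenosyltransferase gene Mat2a had 530 to 844 CPM with vehicle and 490 to 666 CPM with PERC (log2 -0.20, SE 0.18).

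Asns and Chac1 are shown with the 250 bases before their start site (RefSeq, GRCm38.p6, written 5′ to 3′ on the gene's strand), because both passed with lane in the model and their promoters hold the core of the element that ATF4 binds with C/EBP partners. Capitals mark matches to TGATGNAA, searched on both strands. The Asns stretch is chr6:7693210-7693459 (minus strand) and the Chac1 stretch chr2:119350992-119351241 (plus strand), where the match is on the opposite strand.
Asns: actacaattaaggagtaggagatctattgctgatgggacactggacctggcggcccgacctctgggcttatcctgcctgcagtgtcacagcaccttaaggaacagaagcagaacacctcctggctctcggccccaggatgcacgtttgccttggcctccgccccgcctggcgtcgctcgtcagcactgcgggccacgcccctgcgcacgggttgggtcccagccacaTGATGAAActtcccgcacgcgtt
Chac1: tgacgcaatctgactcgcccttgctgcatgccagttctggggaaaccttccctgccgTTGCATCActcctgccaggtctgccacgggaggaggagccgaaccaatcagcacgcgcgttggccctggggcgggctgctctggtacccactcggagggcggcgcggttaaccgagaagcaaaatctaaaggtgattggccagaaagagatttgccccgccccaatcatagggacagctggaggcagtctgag
The match was present in 3.45% of all 32851 promoters of this length and in 9 of 31 ATF4 list genes that had a promoter in the table. These letters were not in the windows of Mthfd2 or Trib3. The Mthfd2 window (chr6:83317605-83317854) lies inside the RefSeq span of the gene (83305704 to 83326011), so it precedes an internal start and not the outermost one. A match describes the sequence and does not show binding. Of the 74 fatty acid list genes with a promoter in the table, 0 held 2 copies of AGGTCA with 1 base between them on either strand, a strict form of the direct repeat that PPARA binds, which 0.0335% of all promoters held. Cyp4a10, Cyp4a31, Cyp4a14 and Acaa2 had no entry.

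The 12 uncalled genes with a positive log2 fold change and the smallest p also held genes outside these pathways. Nkain1, a membrane protein that binds the sodium pump, had 8.65, 11.2 and 9.51 CPM with vehicle and 32.5, 32.2, 21.3 and 21.6 CPM with PERC (log2 1.46, SE 0.28, edgeR adjusted p = 0.0556). Its PERC libraries fell into a higher pair, replicates 1 and 3, and a lower pair, both above vehicle. Mettl7b, a methyltransferase found at lipid droplets, was at log2 0.57 (SE 0.12) and the thymidylate synthase gene Tyms at 0.59 (SE 0.13). The peroxisomal dehydrogenase gene Hsdl2 was at 0.86 (SE 0.19), and Cox6b2, a subunit of cytochrome oxidase best known from testis, at 1.38 (SE 0.31). With lane in the model Nkain1, Mettl7b and Hsdl2 passed (edgeR adjusted p = 0.0365, 0.0365 and 0.0291), and Tyms and Cox6b2 did not (0.0596 and 0.0976). In all 12 of these genes the groups did not overlap, which choosing by p favours.

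Below vehicle, edgeR called 0 genes in the fit over 6 groups, with 402 at an unadjusted p under 0.05. DESeq2 called 5 lower (Selenbp2, Tgtp2, Rasgef1b, Fmo5 and Itih2), and edgeR with the low-depth libraries kept called Selenbp2 and Tgtp2. Selenbp2 had the smallest p in the fit over 6 groups: its product binds selenium in rodents, and its levels were 18.99, 19.7 and 15.7 CPM with vehicle and 7.45, 8.43, 9.94 and 6.57 CPM with PERC (log2 -1.18, SE 0.25, edgeR adjusted p = 0.113). The flavin monooxygenase gene Fmo5 had 236, 214 and 363 CPM with vehicle and 156 to 173 CPM with PERC (log2 -0.72, SE 0.18), and -0.45 without vehicle replicate 5. Selenbp2 and Fmo5 were also the 2 genes called lower with lane in the model. Tgtp2, an interferon-inducible GTPase, was at 27.9 CPM in vehicle replicate 2 and at 2.64 and 5.11 CPM in the other vehicle libraries. Its PERC libraries lay between 1.92 and 2.88 CPM, and its log2 fold change of -2.31 (SE 0.51) became -0.63 without vehicle replicate 2. Without vehicle replicate 3, Tgtp2 was called.

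**Figure D2:**
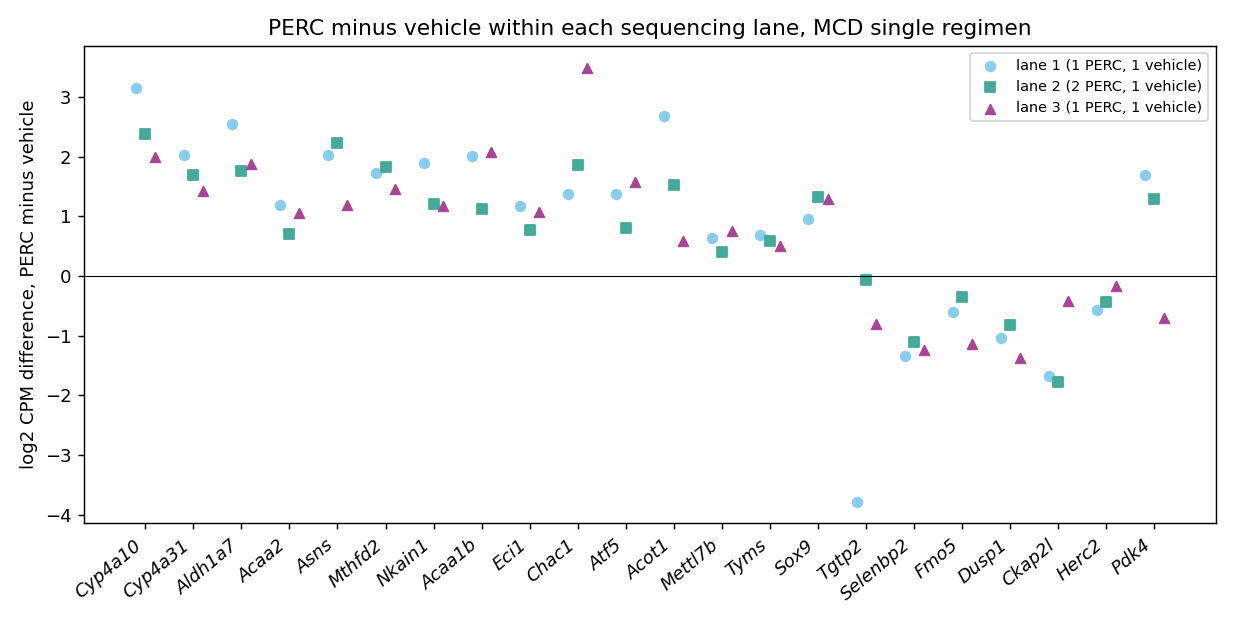
PERC minus vehicle within each of the 3 sequencing lanes, as the difference in log2 CPM, for 22 genes. Lane 2 holds 2 PERC libraries and the other lanes 1, and each lane holds 1 vehicle library. The called genes and Asns, Mthfd2, Nkain1 and Acaa1b are positive in all 3 lanes, while Pdk4 is negative in lane 3 and Tgtp2 is large in lane 1 alone.

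Genes of cell division lay mostly below vehicle. Of 38 tested cell cycle genes, 31 had a negative log2 fold change (median -0.34), 0 were called, and 7 had PERC libraries all below vehicle (3.25% of all tested genes did). In 3 of them, Tyms, the cyclin gene Ccnd1 and Mcm5, the PERC libraries were all above (2.67% of all tested genes were). Ccnb1, cyclin B1, had 0.716 to 1.47 CPM with vehicle and 0.113 to 0.432 CPM with PERC (log2 -1.78, SE 0.62). The mitotic motor gene Kif11 was at -0.85 (SE 0.28) and the mitotic kinase gene Cdk1 at -0.80 (SE 0.28). Mki67, the usual marker of cycling cells, had 12.1, 7.62 and 7.06 CPM with vehicle and 3.72, 7.03, 3.28 and 7.10 CPM with PERC, and its groups overlapped (log2 -0.76, SE 0.30, and -0.45 without vehicle replicate 2). The 6 Mcm genes of the replication helicase lay between -0.051 and 0.25. These are genes of low count, and 0 of the 38 were called after 5 doses, where 5.10% of all tested genes were.

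Tubular injury genes gave no call among 27 tested (median 0.077). Havcr1, kidney injury molecule 1, had 3.08, 1.08 and 4.09 CPM with vehicle and 4.63, 5.40, 4.20 and 3.94 CPM with PERC, with overlap (log2 0.70, SE 0.70, edgeR adjusted p = 0.999). Lcn2, the injury marker lipocalin 2, was at -0.43 (SE 0.49), and Cdkn1a, the p53 target p21, at 0.090 (SE 0.22). Sox9, a transcription factor of tubule repair, had 0.463, 0.489 and 0.307 CPM with vehicle and 1.02, 1.62, 1.23 and 0.933 CPM with PERC (log2 1.42, SE 0.35, edgeR adjusted p = 0.214), so its groups were apart at a low level. Of 25 tested p53 targets, 0 were called (median 0.037).

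Genes of the routes by which PERC is handled held no call. Of 28 tested genes of glutathione conjugation and mercapturate formation, 0 were called (median 0.083), with Gstt2, a theta-class transferase, at 0.68 (SE 0.22) and Gsta2 at 0.49 (SE 0.17). The NRF2 target list, which covers the response to oxidants, had a median of 0.13 and 0 calls in 28 genes, with Nqo1 at 0.42 (SE 0.16). Cyp2e1, which oxidises small solvents, had 1534, 1527 and 2395 CPM with vehicle and 1627 to 2301 CPM with PERC (log2 0.092, SE 0.18). Outside Cyp4a, P450 and flavin monooxygenase genes had a median of 0.044 over 20 tested genes.

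Cholesterol synthesis genes were positive in 21 of 24 (median 0.27), where 47.1% of all tested genes were, with 0 calls. In 8 of them the PERC libraries were all above vehicle (2.67% of all tested genes were). Insig1, a sterol sensor, was at 0.69 (SE 0.25). Interferon response genes were negative in 21 of 24 (median -0.22), with 3 wholly below vehicle (3.25% of all tested genes were) and 0 calls. Glucocorticoid response genes were negative in 13 of 16 (median -0.12). Proximal tubule transporters were split, with 28 of 42 positive (median 0.14). The organic anion and amino acid transporter genes among them did not pass, and Slc7a13, the cystine transporter gene of the straight segment, had 1105, 1187 and 1846 CPM with vehicle and 885 to 1052 CPM with PERC (log2 -0.48, SE 0.22, and -0.21 without vehicle replicate 5). The lists not described held 0 calls, with medians between -0.085 and 0.14.

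Marker genes of other cell types were summed in each library, since in bulk tissue fewer cells of a type and less RNA per cell cannot be told apart. Proximal tubule markers summed to 46887 to 48753 CPM with vehicle and 42704 to 46459 CPM with PERC, without overlap (exact permutation p = 0.0571, two-sided, the smallest that 4 against 3 libraries allow). Most of the list did not share this direction: 7 of the 10 markers had a positive log2 fold change and 3 a negative one (median 0.11). PERC libraries lay all below vehicle for 1 marker and all above for 1 (3.25% and 2.67% of all tested genes did). The 8 adrenal markers summed to 6.94 to 9.71 CPM with vehicle and 3.84 to 6.66 CPM with PERC, also without overlap (exact permutation p = 0.0571). Cyp11b1, Th, Dbh and Pnmt were at 0 in all 7 libraries. Star was the 1 adrenal marker with enough counts to be tested (log2 -0.524), near the log2 ratio of the sum (-0.525). For each of the 20 sums, groups that do not differ lie apart with probability 0.0571. The 11 adipocyte markers summed to 86.1 to 199 CPM with vehicle and 73.03 to 384 CPM with PERC. PERC replicate 3 was the highest. Among the PERC libraries it also held the highest Fasn, fatty acid synthase, at 457 CPM against 88.3 to 150 CPM in the others. With the adipocyte level in the model, 13 genes were called, the 4 among them. The other 17 marker sums overlapped between groups. In the erythroid list Hba-a1, Hba-a2, Hbb-bs and Hbb-bt were at 0 in all 7 libraries, so Alas2 alone made up that sum. The part of the cell types in the results was not tested beyond the adipocyte covariate.

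**Figure D3:**
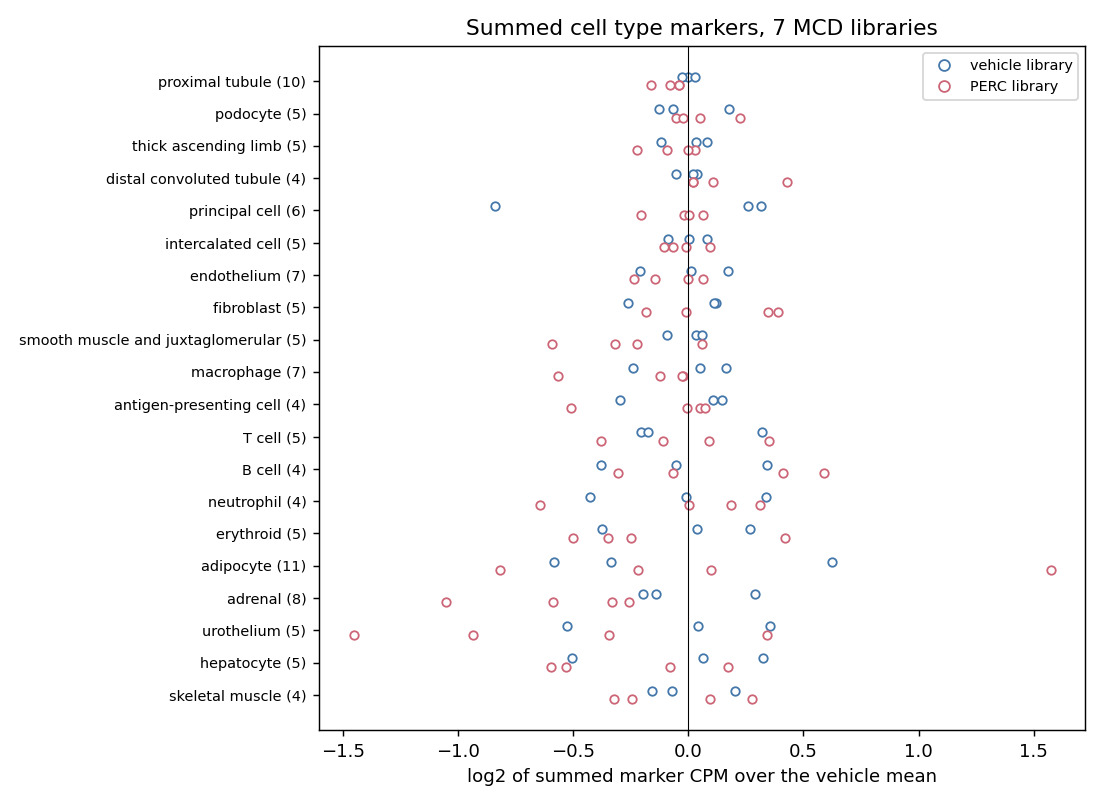
Summed CPM of 20 cell type marker lists in each library, as log2 of the ratio to the vehicle mean (number of markers in brackets). Blue rings are the 3 vehicle and red rings the 4 PERC libraries. PERC and vehicle rings are apart for the proximal tubule and adrenal lists and overlap for the other 18.

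Does the response on the MCD diet differ from that on the other diets? The direct test of MCD minus LFD called 0 of 14280 genes (0.00%) with edgeR, with 600 at an unadjusted p under 0.05, and DESeq2 called 2, Ehf and Gem. The test of MCD minus HFD called 0 with edgeR and with DESeq2, with 245 at an unadjusted p under 0.05. A missing call does not show that the diets act alike. With the same test within each diet, 107 genes were called on LFD (0.749%) and 1 on HFD (0.00700%).

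The 4 called genes were also positive on LFD and HFD, whose libraries are separate from the MCD ones. Aldh1a7 was at log2 1.89 (SE 0.26) on LFD and 1.83 (SE 0.27) on HFD, and MCD differed by 0.15 (SE 0.40) from LFD and 0.21 (SE 0.40) from HFD. Cyp4a10 was at 2.70 (SE 0.34) and 1.55 (SE 0.34), with differences of -0.23 (SE 0.49) from LFD and 0.91 (SE 0.50) from HFD. Cyp4a31 was at 1.58 (SE 0.25) and 0.94 (SE 0.25), with differences of 0.10 (SE 0.38) and 0.74 (SE 0.38). Acaa2 was at 0.85 (SE 0.15) and 0.71 (SE 0.15), with differences of 0.11 (SE 0.23) and 0.25 (SE 0.23). Nkain1 was at 0.62 (SE 0.23) on LFD and 0.35 (SE 0.23) on HFD against 1.46 on MCD, and its differences of 0.84 (SE 0.36) from LFD and 1.11 (SE 0.36) from HFD did not pass (edgeR adjusted p = 0.998 and 0.9996).

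The smallest p values of the diet tests belonged to genes that lay on opposite sides of 0. Ehf, an epithelial transcription factor gene, had 54.4, 52.1 and 65.4 CPM with vehicle and 42.5, 31.1, 40.1 and 32.3 CPM with PERC on MCD. Its log2 fold change was -0.65 (SE 0.20) on MCD, 0.72 (SE 0.17) on LFD and -0.46 (SE 0.17) on HFD. The MCD minus LFD difference was -1.37 (SE 0.26, edgeR adjusted p = 0.331), and Ehf was the 1 gene called in this test with lane in the model. Gem, a small GTPase of the RGK family, differed by -2.71 (SE 0.61), and Rasgef1b, an exchange factor for small GTPases, by -1.25 (SE 0.29), both with an edgeR adjusted p of 0.919. Against HFD, the smallest p values were those of Derl3 (2.45, SE 0.56), Col8a1 (0.98, SE 0.23) and Tgtp2 (-2.56, SE 0.69), each with an edgeR adjusted p of 0.9996.

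**Figure D4:**
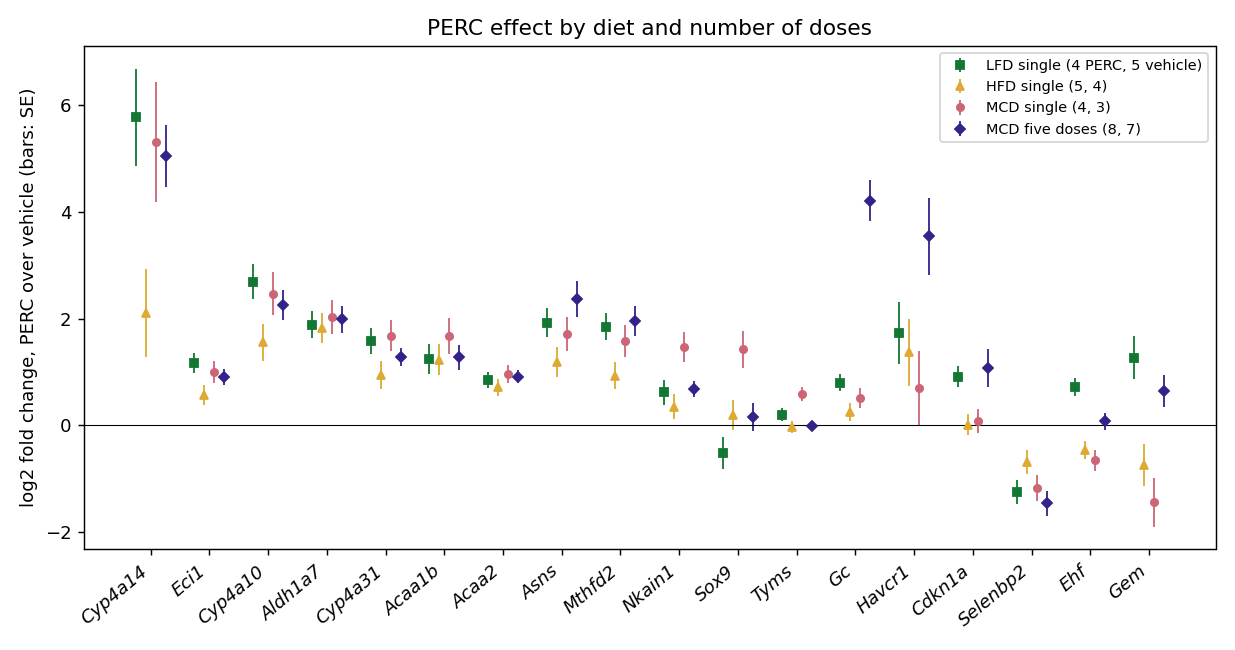
Log2 fold changes of PERC over vehicle with their SE for 18 genes in 4 comparisons: single dose on LFD, HFD and MCD, and 5 doses on MCD. The fatty acid and amino acid response genes lie on the positive side in all 4 comparisons. Gc is at 4.21 after 5 doses and at 0.51 after 1, and Ehf and Gem lie below 0 on MCD after 1 dose and above 0 on LFD.

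After 5 doses, separate MCD libraries gave 745 calls among 14614 tested genes (5.10%), 397 higher (2.72%) and 348 lower (2.38%). All 4 genes of the single dose were among those higher: Aldh1a7 (log2 1.99, SE 0.26), Cyp4a10 (2.25, SE 0.28), Cyp4a31 (1.28, SE 0.17) and Acaa2 (0.92, SE 0.12). Cyp4a14 was at 5.32 after 1 dose and 5.05 after 5. Of the 306 genes above vehicle at an unadjusted p under 0.05 after 1 dose, 305 were tested after 5, and 101 of them (33.1%) were called higher there, where 2.69% of all genes tested in both were. Of the 402 below vehicle, 398 were tested and 36 (9.05%) were called lower, where 2.43% of all were. Of the 305, 226 (74.1%) kept their sign after 5 doses and 1 was called lower. Of the 398, 199 kept their sign and 5 were called higher. Among all genes tested in both regimens, 51.6% were above and 48.4% below vehicle after 5 doses.

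Of the 12 leading uncalled on the positive side after 1 dose, 10 were called higher after 5 doses, and Mettl7b and Tyms were not. Of the 12 on the negative side, 3 were called lower after 5 doses (Selenbp2, Fmo5 and Itih2) and 9 were not, among them Rasgef1b, Ckap2l, Apold1 and Herc2. ATF4 targets had 17 of 33 called higher after 5 doses and a median of 0.57, against 0.22 after 1. Of the 92 genes of the 6 fatty acid lists, 43 were called higher and 5 lower. Of all genes tested after 5 doses, 2.72% were called higher and 2.38% lower.

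The direct test of 5 doses against 1 called 2 of 15139 genes (0.0132%). Gc, the vitamin D binding protein gene, had 27.3, 26.8 and 38.7 CPM with vehicle after 1 dose and 57.6, 34.8, 38.1 and 44.6 CPM with PERC, where the groups overlapped (log2 0.51, SE 0.19). After 5 doses it had 23.2 to 45.96 CPM with vehicle and 304 to 820 CPM with PERC, before the TMM adjustment, and the groups were far apart. The difference between regimens was 3.70 (SE 0.53, edgeR adjusted p = 3.53e-05). Regimens share no lane and differ in the time from the last dose to death, 24 h and 4 h, so dose number, time and lane cannot be told apart.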

How the data were processed

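Messenger RNA of pulverized kidney was sequenced from stranded libraries, per the labels' protocols. The authors deposited raw counts of reads for each gene symbol, as whole numbers without normalization. The submitters' processing notes name the mouse build GRCm38 (mm10), the aligner TopHat2 2.0.13, the counter HTSeq, the trimmer Trimmomatic, DESeq2 and bcl2fastq 2.17.1.14. The annotation and strand setting are not given in the sources used here. Overlapping and antisense genes are therefore uncertain. Reads outside genes (no feature, ambiguous, aligned to several places, not aligned) stayed out of library sizes, and took 40.0% to 46.3% of reads in the 7 libraries.

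Libraries were grouped by their labels, and replicate numbers, given in accession order, only name a library. Lane was read from file names. Of 24499 genes, filterByExpr kept 14280 over the 25 single-regimen libraries. Counts were scaled by TMM (0.948 to 1.06) and tested with edgeR 4.0.16 (R 4.3.3, robust quasi-likelihood F test, 1 mean per group over 6 groups), with Benjamini-Hochberg adjustment over all tested genes. SE was taken as the absolute log2 fold change over the root of the F statistic. Log2 CPM used a prior count of 2. The test was tried on simulated counts with known changes. The lowest chi-square per gene between libraries of a group was 6.38, so each library counts once. Alternatives were DESeq2 1.42.0, RLE factors, no filter, the MCD groups alone, lane or adipocyte level as a covariate, the low-depth libraries kept, and each library left out.

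The text names genes called, the 12 uncalled genes on either side with the smallest p, the 3 leading members of each of 26 pathway lists, a fixed set, and the 3 leading genes of each test between effects. Other members of the lists and families named were chosen after their values were seen. Members and lists were chosen with earlier results of these data known. Some genes that the rule names are not reported here. Coordinates are from RefSeq on GRCm38.p6.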

Additional observations from a re-analysis of the deposited data

Results flagged for a closer look

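In the 4 PERC libraries, 1 library lay far from the other 3 in 8 of the checks made on 109 named genes and 20 marker sums, and chance flags about 1 in 20 such groups. PERC replicate 1 was the high one for Cyp4a10 (1444 CPM against 827 to 863), Cyp4a31 (1079 CPM against 733 to 780) and the clock gene Bhlhe41 (3.16 CPM against 2.25 to 2.39). It was the low one for summed antigen-presenting cell markers (407 CPM against 578 to 609). Without it edgeR called 0 genes (606 at an unadjusted p under 0.05), and the log2 fold change of Cyp4a10 was 2.24. PERC replicate 3 was high for Fasn (457 CPM against 88.3 to 150). PERC replicate 4 was high for Nfkbia, the inhibitor of NF-kappa-B (30.4 CPM against 24.0 to 24.97). PERC replicate 5 was high for the ubiquitin ligase gene Herc2 (92.1 CPM against 69.8 to 72.4) and low for the chaperone gene Dnajb11 (87.1 CPM against 107 to 110).

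The PERC effect on MCD differed between 5 doses and 1 for Gc (3.70 on the log2 scale) and for Gm3776, a predicted copy of the glutathione transferase gene Gsta1 (fitted log2 difference 12.03). The fitted value for Gm3776 is no fold, because nearly all of its counts after 1 dose came from vehicle replicate 3. That library held 163 counts of Gm3776, and the other 6 held 0 to 2. After 5 doses the PERC libraries held 1 to 22 counts (median 6) and the vehicle libraries 0 or 1. Gsta1 itself had 0 to 4 counts in each of the 7 single-regimen libraries, and 1 to 35 counts (median 15) with PERC after 5 doses. The cause of the 163 counts was not tested.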

How the results depend on the processing

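The count of 4 genes became 43 with DESeq2, 17 with lane as a covariate, and 13 with either the adipocyte covariate or the low-depth libraries kept, and it was 0 to 5 with 1 library left out. RLE factors, no filter and the MCD groups alone gave 5 each, and the 4 genes were in every one of these sets except that Acaa2 was not called with the MCD groups alone. For MCD minus LFD the count of 0 became 2 with DESeq2, 1, Ehf, with lane as a covariate, and 0 to 2 with 1 library left out (2, D17H6S56E-5 and Ehf, without LFD PERC replicate 3). For MCD minus HFD it was 0 under all alternatives run. For 5 doses minus 1 it was 1 to 5 with 1 library left out: 1, Gc, without vehicle replicate 3 and 5 without PERC replicate 5. Among the 111 named genes the direction reversed for Fasn (-0.077 to 0.93 with 1 library left out), Mat2a (-0.30 to 0.047), Adipoq (-0.070 with the adipocyte covariate, and -0.21 to 1.45 with 1 library left out), Lcn2 (-0.77 to 0.19), Cyp2e1 (-0.018 to 0.35) and Umod (0.00029 with lane, and -0.068 to 0.069 with 1 library left out). Marker sums that reversed with 1 library left out were, as log2 ranges, podocyte (-0.00808 to 0.15), principal cell (-0.32 to 0.15), intercalated cell (-0.063 to 0.0205), endothelium (-0.17 to 0.0204), antigen-presenting cell (-0.21 to 0.039), T cell (-0.12 to 0.20), neutrophil (-0.17 to 0.21), erythroid (-0.36 to 0.0303), adipocyte (-0.27 to 0.91) and skeletal muscle (-0.15 to 0.083). The cause was not tested. Over the alternatives for named genes, 62 values gained a call and 21 lost one with their direction kept. No paired analysis was possible because replicate numbers follow accession order and pair no libraries, and the blocked fit is the one with lane as a covariate. With 9047579 counts in the shallowest library, genes near 1 CPM rest on few reads.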

Other observations

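Dusp1, Nr4a1 and Gem, immediate-early genes, which respond within minutes to stimulation, did not pass the test, and their PERC libraries all lay below vehicle. Apold1, looked at with them, did not pass either and also lay wholly below vehicle (log2 -1.45, SE 0.37). The other immediate-early genes looked at overlapped between groups, among them Egr1 (log2 -1.26), Fos (-0.86), Jun (-0.31), Klf6 (-0.057), Junb (-0.053) and Atf3 (0.057). All these genes were picked after their values were seen, so no count or test over such genes is given. Dusp1, a phosphatase that turns off MAP kinases and a member of the glucocorticoid response list, had 69.6, 105.3 and 147.2 CPM with vehicle and 33.96, 55.8, 63.2 and 56.8 CPM with PERC (log2 -1.03, SE 0.31). Nr4a1, an orphan nuclear receptor gene, had 8.30, 19.6 and 8.49 CPM with vehicle and 2.82, 6.16, 4.51 and 3.65 CPM with PERC (log2 -1.497, SE 0.50). Gem had 8.10, 17.6 and 20.9 CPM with vehicle and 4.85, 6.05, 7.58 and 4.30 CPM with PERC (log2 -1.44, SE 0.46). After 5 doses their log2 fold changes were 0.039 for Dusp1, -0.49 for Nr4a1 and 0.65 for Gem. The hours between dosing and death of the vehicle mice are not given in the sources used here, and their part was not tested.

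The 3 low-depth libraries of these groups were looked at for the 4 called genes. PERC replicate 2 held 5 of 2550 counts in them (0.196%, exact 95% interval 0.0637% to 0.457%). Vehicle replicate 1 held 6 of 4735 (0.127%, 0.0465% to 0.276%) and vehicle replicate 4 held 25 of 22029 (0.113%, 0.0735% to 0.167%). Intervals cover counting error only. In the libraries used, the share was 0.0613% to 0.0654% with vehicle and 0.191% to 0.290% with PERC. The interval of vehicle replicate 4 lay between the shares of the vehicle and PERC libraries.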
